A study of Mus musculus with 13 samples.

Results

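Genes that mark the endoderm lineages were followed in mouse embryonic stem (ES) cells with and without a phosphomimetic form of the chromatin architecture protein CTCF. The genes were taken by symbol from both count tables: Gata4, Gata6, Sox17, Sox7, Foxa2, Foxa1, Dab2, Cubn, Afp and Ttr, 10 of the 24421 genes listed. F1-2.1 cells are a female ES cell line from a CAST/Ei x 129/Sv/Jae cross, and those used here carried a Tet-on CTCF S224E transgene, which changes a serine of CTCF to a glutamate that mimics its phosphorylated form. Both groups came from the same transgenic clone, kept their endogenous CTCF, and were grown with LIF and serum on irradiated fibroblast feeders. One group (+dox) received 1 μg/mL doxycycline for 6 days and the other (−dox) received none, with 2 libraries of polyadenylated RNA each. RNA from cells given dox without the S224E transgene was not analysed here, so effects of dox and of CTCF S224E cannot be told apart, and a single clone limits what the groups can stand for.

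Endoderm forms at separate times in the mouse embryo. Primitive endoderm arises in the blastocyst under Gata6, Gata4 and the Sox17 and Sox7 factors, and gives the parietal and visceral endoderm of the yolk sac. Visceral endoderm takes up and secretes nutrients and carrier proteins. Definitive endoderm leaves the primitive streak at gastrulation, depends on Foxa2 and Sox17, and lines the gut, and Foxa proteins open liver chromatin later on. ES cell cultures held with LIF and serum can contain a few cells that express such genes.

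In +dox cells the transcripts of Foxa2, Sox17 and Gata6 fell to 14.4%, 16.8% and 22.4% of their mean −dox level, while Dab2, Sox7 and Cubn did not fall in either replicate. Gata4 and Foxa1 were at 47.9% and 53.3% of their −dox means without passing the test. Afp had at most 4 reads in a library, and Ttr had none in any of the 4. Of the 9 members with a count, 3 were called lower and 0 higher by edgeR's quasi-likelihood test at an adjusted p under 0.01, beside 0.519% of the 20044 genes tested that were called lower and 0.599% called in either direction. DESeq2 called 4 members lower and 0 higher, the fourth being Gata4, beside 1.28% of the genes tested called lower.

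These calls depended on the setting. Foxa2, Sox17 and Gata6 had a negative log2 fold change in each of the 11 other settings tried but were called in 7 of the 11. The 4 settings without a call were edgeR's adjusted deviances, its filterByExpr filter and the fits without −dox replicate 1 or without −dox replicate 2. With adjusted deviances the adjusted p values of the edgeR test were 0.061 for Foxa2, 0.0553 for Sox17 and 0.0802 for Gata6.

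Upstream sequences are shown for the Foxa pair, of which 1 member fell and the other was not called, and for Afp, a liver and yolk sac gene with almost no reads here. They are RefSeq sequences of GRCm38.p6 and match mm9 at a single place, and each is printed 5′ to 3′ on the strand of the gene, ending at the base before the start site. The Foxa2 sequence lies before the start of the counted transcript, at chr2:147871685-147871934 (mm9, minus strand). The Foxa1 sequence lies at chr12:58647109-58647348 (minus strand, mm9), with the last 10 bases of the RefSeq window left off because the mm9 annotation puts them in the first exon. The Afp sequence lies at chr5:90919490-90919739 (mm9, plus strand). Capitals mark the only match in each to the motifs searched. These were a CTCF core (AGGGGGC) in Foxa2 and a FOX motif (TGTTTAC or TGTTTGC) in Foxa1 and Afp, on either strand.
Foxa2: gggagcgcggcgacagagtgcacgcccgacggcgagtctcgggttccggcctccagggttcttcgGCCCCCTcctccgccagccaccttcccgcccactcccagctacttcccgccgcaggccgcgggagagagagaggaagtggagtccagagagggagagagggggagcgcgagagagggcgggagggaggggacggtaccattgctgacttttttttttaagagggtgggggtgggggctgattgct
Foxa1: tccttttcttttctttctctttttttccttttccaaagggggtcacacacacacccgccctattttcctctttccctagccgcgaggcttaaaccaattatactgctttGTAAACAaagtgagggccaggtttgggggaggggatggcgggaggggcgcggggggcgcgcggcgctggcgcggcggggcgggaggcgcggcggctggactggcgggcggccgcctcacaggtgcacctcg
Afp: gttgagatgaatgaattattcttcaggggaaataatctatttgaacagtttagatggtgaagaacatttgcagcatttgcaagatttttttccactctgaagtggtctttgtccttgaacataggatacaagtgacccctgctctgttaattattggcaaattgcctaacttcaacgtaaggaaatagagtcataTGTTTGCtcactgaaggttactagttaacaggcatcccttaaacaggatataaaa

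The match began 185 bases before the Foxa2 start, 141 bases before the RefSeq start of Foxa1 and 55 bases before the Afp start. Among the 250 bases upstream of each of 32851 mouse start sites, 9.43% held the CTCF core and 7.29% a FOX motif. GC content was 67.2% over the Foxa2 window, 62% over the whole Foxa1 window and 36% over the Afp window. RefSeq windows were found for 5 members (Foxa2, Foxa1, Dab2, Afp and Cubn), 8 in all. Of the other windows, a second Foxa2 start and the upstream Dab2 start each held 1 GATA motif. That motif was the letters AGATAA or TGATAA, or either with a final G, present in 26.5% of windows. The Cubn window held 1 TCF/LEF motif (CTTTGAT, 3.21%). It began 37 bases before the RefSeq start, where the mm9 annotation puts an exon of Cubn. A match of letters is a description of the sequence, and binding at these places was not measured here.

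The libraries held 22899107 to 30206085 counted reads, and levels are given as CPM, reads scaled to the size of the library by TMM. Genes whose mean CPM over the 4 libraries reached 1 are termed expressed. Of 20044 genes tested, 104 were called lower and 16 higher, and the median log2 fold change (+dox against −dox) of the 13911 expressed genes was −0.0011. Ctcf, whose row takes reads from the endogenous gene and may take those of the transgene, had 295 and 304 CPM in −dox replicates 1 and 2. In +dox replicates 1 and 2 it had 327 and 329 CPM. Ctcf was not called (edgeR adjusted p = 0.475), so its row does not check the labels. To check that the transgene was expressed, the paper looked at reads over the mutated codon and found part of them with the glutamate codon. Counts per gene cannot repeat that check. All 12 ES cell markers were detected in every library and 0 of them were called, with summed levels of 5734 and 6287 CPM in −dox and 6160 and 7230 CPM in +dox. The highest per length, Pou5f1 and Dppa5a, both had log2 fold changes of 0.29 (edgeR adjusted p = 0.0872 and 0.209). One library stood apart: the 20 fibroblast feeder markers summed to 500.3 and 538 CPM in −dox and 640 CPM in +dox replicate 2, but to 1467 CPM in +dox replicate 1. All 20 were detected in every library and 0 were called. In both +dox libraries 18 lay above both −dox libraries, and the share of all genes that did so was not counted. The median log2 fold change of the feeder markers was 1.33, with Fbln2 at 1.07 (edgeR adjusted p = 0.055) and Tagln at −0.17 (edgeR adjusted p = 0.657). Without +dox replicate 1 the log2 fold changes of the members called lower were −2.85 (Foxa2), −2.34 (Sox17) and −2.48 (Gata6). They passed the threshold there too, in a fit with a lone +dox library that called 696 of 19555 genes lower. The part of feeder RNA in the members' changes was not tested. In bulk RNA, fewer cells of a type and less RNA per cell cannot be told apart.

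**Figure D1:**
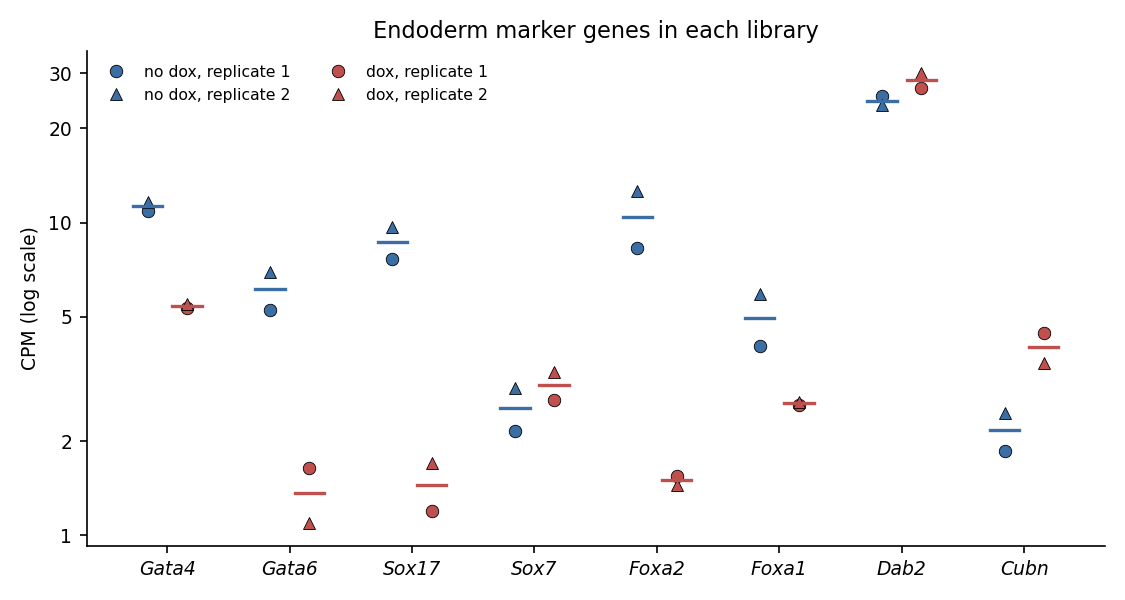
Levels of the 8 expressed endoderm markers, in CPM on a log axis, in the 2 libraries without dox (blue) and the 2 with dox (red). Circles are replicate 1, triangles replicate 2 and lines the group means. For Gata4, Gata6, Sox17, Foxa2 and Foxa1 both red points lie below both blue points, and for Dab2 and Cubn both lie above.

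Foxa2, a forkhead factor that opens chromatin in definitive endoderm, node and later gut and liver, was the member with the largest decrease. It had 253 and 316 reads (8.28 and 12.6 CPM) in −dox replicates 1 and 2, and 35 and 33 reads (1.55 and 1.45 CPM) in +dox replicates 1 and 2. The groups did not overlap, and the gap between them exceeded the spread within either. The log2 fold change was −2.79 ± 0.28 (SE, n = 2 per group), with an adjusted p of 4.60e-04 by edgeR and 3.53e-11 by DESeq2. Within replicates 1 and 2 the difference was −2.36 and −3.06. Only 8 of the 13911 expressed genes had a more negative change. Foxa2 lies on chr2:147868613-147871684 (mm9, minus strand), and its exons overlap no other annotated gene.

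Foxa1, its close relative with overlapping roles in gut and liver, sat at chr12:58641619-58647108 (minus strand). It had 4.03 and 5.90 CPM in −dox and 2.62 and 2.67 CPM in +dox. The +dox values were below both −dox values, with a log2 fold change of −0.90 ± 0.28 (SE, n = 2 per group), but the adjusted p was 0.102 in edgeR and 0.180 in DESeq2. The approximate 95% interval of the change ran from −1.44 to −0.36, apart from that of Foxa2 (−3.35 to −2.24).

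Sox17, an HMG-box factor of primitive and definitive endoderm and of endothelium, was called lower as well (chr1:4481009-4487435, minus strand). It had 234 and 242 reads (7.66 and 9.64 CPM) in −dox and 27 and 39 reads (1.20 and 1.71 CPM) in +dox. Both replicates showed a decrease of similar size, −2.60 and −2.44 on the log2 scale. The fitted log2 fold change was −2.57 ± 0.28 (SE, n = 2 per group; adjusted p = 7.13e-04, edgeR), and 11 of the 13911 genes had a more negative one.

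Its relative Sox7, which marks primitive and parietal endoderm as well as endothelium, did not follow (chr14:64562543-64569569, plus strand). It had 2.16 and 2.95 CPM in −dox and 2.71 and 3.33 CPM in +dox, and the groups overlapped. The log2 fold change was 0.25 ± 0.29 (SE, n = 2 per group), with a 95% interval from −0.32 to 0.81 and an edgeR adjusted p of 0.709. A fall of the size seen for Sox17 lies outside that interval.

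Gata6, the zinc finger factor that starts the primitive endoderm programme, was the third gene called lower (chromosome 18, 11052508 to 11085633, plus strand). It had 161 and 175 reads (5.27 and 6.97 CPM) in −dox and 37 and 25 reads (1.64 and 1.09 CPM) in +dox. The decrease was −1.63 within replicate 1 and −2.59 within replicate 2 on the log2 scale, so the replicates differed more in size than for Sox17. The fit gave −2.16 ± 0.30 (SE, n = 2 per group), with an adjusted p of 0.00309 (edgeR) and 5.80e-05 (DESeq2). A noncoding transcript on the opposite strand, 1010001N08Rik, overlaps its exons by 58 bases in the annotation. Whether the authors' counting used the strand is not stated in the sources used here, so reads in that stretch could come from either. Counted as its own gene, 1010001N08Rik had 0.0655 and 0.12 CPM in −dox replicates 1 and 2 and 0 CPM in both +dox libraries.

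Gata4, which acts after Gata6 in primitive endoderm and again in heart and gut, was called by DESeq2 but not by edgeR (chr14:63817751-63864108, minus strand). It had 333 and 292 reads (10.9 and 11.6 CPM) in −dox and 120 and 125 reads (5.33 and 5.47 CPM) in +dox. The libraries of each group lay close together, and the difference was −1.02 in replicate 1 and −1.08 in replicate 2. The log2 fold change of −1.06 ± 0.20 (SE, n = 2 per group) missed the threshold in edgeR (adjusted p = 0.0197) and passed it in DESeq2 (adjusted p = 0.00373). The tables count Gata4 on transcripts of 3399 bases in replicate 1 and 3396 bases in replicate 2.

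**Figure D2:**
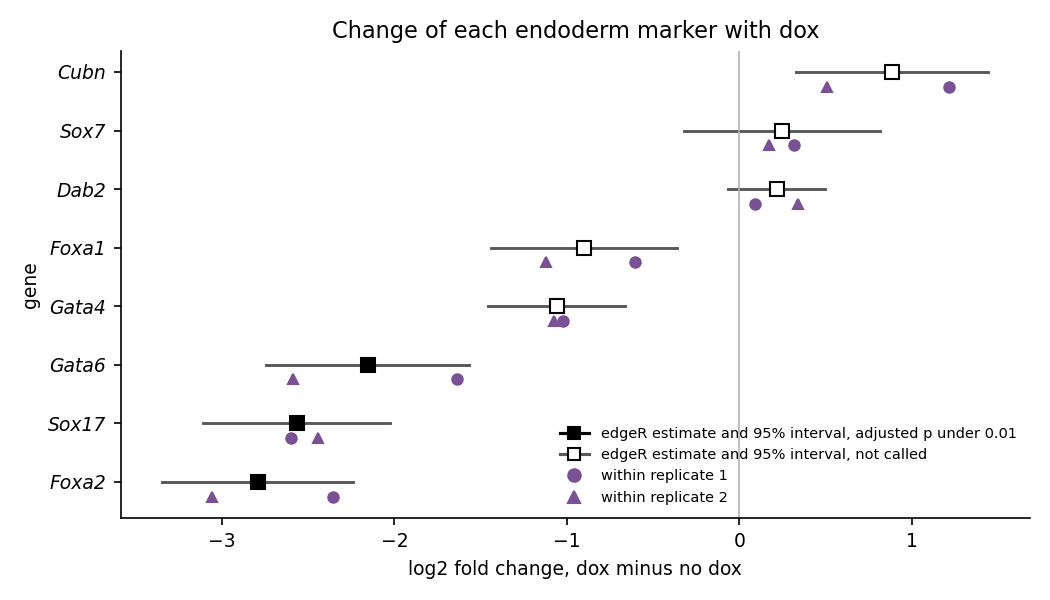
Log2 fold change of each endoderm marker, +dox minus −dox, on the x axis, with genes on the y axis. Squares are edgeR estimates with approximate 95% intervals, filled where the adjusted p is under 0.01, and purple circles and triangles are the differences within replicates 1 and 2. Foxa2, Sox17 and Gata6 sit at −2.79, −2.57 and −2.16, and Dab2, Sox7 and Cubn sit to the right of 0 in both replicates.

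Neither Dab2 nor Cubn, the members with endocytic roles in visceral endoderm, was called. Dab2, an adaptor that sorts receptors into clathrin-coated pits and is needed for visceral endoderm to form a proper layer, was the member with the most reads. It had 25.3 and 23.7 CPM in −dox and 27.0 and 30.0 CPM in +dox. Its log2 fold change was 0.22 ± 0.14 (SE, n = 2 per group; edgeR adjusted p = 0.482), with a 95% interval from −0.07 to 0.50. Dab2 lies on chr15:6336748-6390709 (plus strand) and is also expressed outside endoderm.

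Cubn, the cubilin receptor for vitamin B12 complexes and lipoproteins in yolk sac, kidney and gut, had 1.87 and 2.47 CPM in −dox and 4.44 and 3.55 CPM in +dox. Both +dox values were above both −dox values, at 184% of the −dox mean. The log2 fold change of 0.88 ± 0.28 (SE, n = 2 per group) did not pass the test (adjusted p = 0.119 in edgeR and 0.232 in DESeq2), and it was 1.22 in replicate 1 and 0.51 in replicate 2. The library with the higher value, +dox replicate 1, was also that with the most feeder marker RNA, and whether this bears on Cubn was not tested. Cubn spans chr2:13197965-13413503 (minus strand), and a noncoding gene on the opposite strand, Gm13270, overlaps its exons by 161 bases.

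The secreted carriers, which are the usual markers of mature visceral endoderm and fetal liver, were at or near 0. Afp (alpha-fetoprotein, chr5:90919740-90937933) had 2 and 3 reads in −dox and 0 and 4 reads in +dox. The ratio of summed reads, corrected for library size, was 0.982, with an exact 95% interval from 0.195 to 4.56 that covers counting error only, so a change of Afp was not detectable at this depth. Ttr (transthyretin, chromosome 18, 20823751 to 20832827) had 0 reads in each library, which allows levels of up to 0.0982 and 0.12 CPM in −dox and 0.133 and 0.131 CPM in +dox, at 3 reads a library.

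There were 8 expressed members, and each of these was above 1 CPM in every library. Of the 8, 3 were called lower, beside 0.733% of the 13911 genes at that level, and their median log2 fold change was −0.98. In 5 of them, both +dox libraries were below both −dox libraries, which held for 27.7% of the 13911 genes.

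The members also changed places relative to each other. Per kilobase of counted transcript, Foxa2 was among the top 2 of the 10 in both −dox libraries and in place 5 in both +dox libraries, while Sox7 went from place 7 to place 3. Dab2 held place 1 or 2 in each library, and Gata4 place 3 in −dox and place 2 in +dox. Cubn stayed near the foot of the order, with Afp and Ttr below it and, in +dox replicate 1, Sox17 as well. Foxa2 at 4.01 and 6.10 CPM per kb was above Foxa1 at 1.27 and 1.85 CPM per kb in −dox. In +dox the levels were 0.753 and 0.699 CPM per kb for Foxa2 and 0.823 and 0.839 CPM per kb for Foxa1, neighbours in the order.

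Ratios within a library do not depend on how libraries are scaled. The per-length ratio of Foxa2 to Foxa1 was 3.17 and 3.29 in −dox and 0.914 and 0.833 in +dox. That of Sox17 to Sox7 was 2.85 and 2.62 in −dox and 0.355 and 0.412 in +dox. In both pairs the member that was higher in −dox became the lower one in +dox. Gata6 was below Gata4 in all 4 libraries, with ratios of 0.516 and 0.639 in −dox and 0.329 and 0.213 in +dox. The mean log2 ratio moved by −1.89 for Foxa2/Foxa1, −2.84 for Sox17/Sox7 and −1.12 for Gata6/Gata4. A two-sided exact permutation test of each ratio gave p = 0.333, the smallest that 2 libraries against 2 allow.

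**Figure D3:**
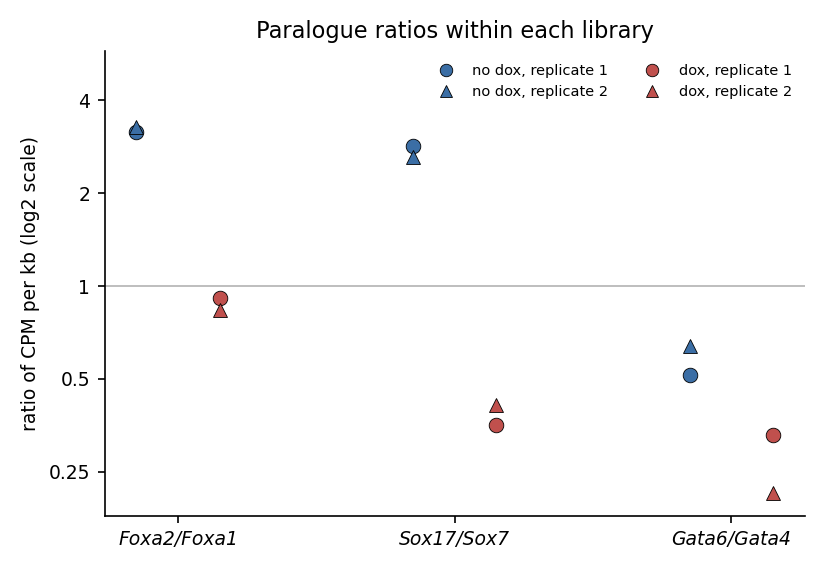
Ratio of CPM per kb between related members in each library, on a log2 axis, for Foxa2/Foxa1, Sox17/Sox7 and Gata6/Gata4 (blue without dox, red with dox, circles replicate 1, triangles replicate 2). The first 2 ratios lie above 1 without dox, at 2.62 to 3.29, and below 1 with dox, at 0.355 to 0.914.

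Other genes of the same lineages were read from 4 lists that leave out the 10 members. Of 67 list genes tested, 7 were called lower and 0 higher by edgeR, against 0.519% of all genes tested called lower. DESeq2 called 10 lower, against 1.28% of all genes tested. The lists were chosen with earlier results of these data known, so these counts describe the lists and do not test them. Over the 53 expressed ones the median log2 fold change was −0.29, with 35 below 0 and 18 above. The lists differed in how many of their genes were called.

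In the definitive and anterior endoderm list 4 of 17 genes were called lower. Lhx1 (log2 fold change −4.27) and Cer1 (−5.55, an inhibitor of Nodal, BMP and Wnt) act in anterior visceral and definitive endoderm, and Mixl1 (−3.46) and Eomes (−1.71) are factors of the primitive streak, which also gives mesoderm. Eomes had 34.9 and 39.5 CPM in −dox and 11.0 and 11.7 CPM in +dox (edgeR adjusted p = 1.87e-04). DESeq2 added Gsc, Dkk1 and Kit. The median over the 15 expressed genes was −0.57, with 12 below 0.

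In the primitive and parietal endoderm list, 3 of 18 genes were called lower, and all were keratins. Krt8 had 109 and 139 CPM in −dox and 28.3 and 19.1 CPM in +dox, a log2 fold change of −2.39 ± 0.18 (SE, n = 2 per group; edgeR adjusted p = 3.5e-05). Krt18, its filament partner, changed by −1.96 (adjusted p = 1.49e-04, edgeR) and Krt19 by −1.70 (adjusted p = 0.00109, edgeR). These keratins are made by simple epithelia in general, trophoblast included. None of the other 15, which include the laminin and collagen IV genes of the basement membrane, was called, and the median of the list was 0.11. It was 0.11 within replicate 1 and −0.16 within replicate 2. In +dox replicate 1, the library with the most feeder marker RNA, 10 of the 18 genes lay above both −dox libraries, against 3 in +dox replicate 2. The share of all genes that did so was not counted. Col4a1 differed by 0.87 and −0.26 and Pdgfra by 1.47 and −0.37 within replicates 1 and 2, and the part of feeder RNA in this was not tested.

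The visceral endoderm list had 0 of 22 genes called by edgeR and 0 by DESeq2. Its 16 expressed genes had a median of −0.36, with 12 below 0. Hnf4a, the nuclear receptor that drives visceral endoderm and liver genes, had 2.46 and 3.35 CPM in −dox and 0.888 and 0.832 CPM in +dox, with a log2 fold change of −1.74 and an edgeR adjusted p of 0.0209. Clic6 had a log2 fold change of −1.64 (adjusted p = 0.0251, edgeR). The genes under a mean of 1 CPM were Apoa1, Apoa4, Apoc2, Fga, Fgb and Fgg, which encode secreted proteins. Other secreted carriers of the list had reads and went both ways. Apoa2 had 6.97 and 7.05 CPM in −dox and 10.2 and 10.6 CPM in +dox (edgeR adjusted p = 0.146). Apom was also higher in both +dox libraries (edgeR adjusted p = 0.199). Trf and Rbp4 were lower in both +dox libraries, with log2 fold changes of −0.17 and −0.43 (edgeR adjusted p = 0.711 and 0.651). Apob had a log2 fold change of −0.09 (edgeR adjusted p = 0.915). Trf, Apob and Rbp4 had means of 7.55, 5.07 and 1.01 CPM. Lrp2 (megalin), an endocytic partner of cubilin, had 58.9 and 44.7 CPM in −dox and 39.8 and 21.2 CPM in +dox. Its log2 fold change was −0.77 (edgeR adjusted p = 0.1003). Amn, of the same list, had 3.63 and 2.43 CPM in −dox and 3.29 and 2.93 CPM in +dox. The log2 fold change of Amn was 0.03 (edgeR adjusted p = 0.968).

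The gut endoderm list had 0 of 10 genes called, and 4 of its genes were expressed, with a median of −0.74. Cdx2, a factor of hindgut and trophoblast, had 1.80 and 2.19 CPM in −dox and 0.311 and 0.569 CPM in +dox, with a log2 fold change of −2.16 and an adjusted p of 0.0211 in edgeR. Krt7 had a log2 fold change of −1.07 (adjusted p = 0.109, edgeR).

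**Figure D4:**
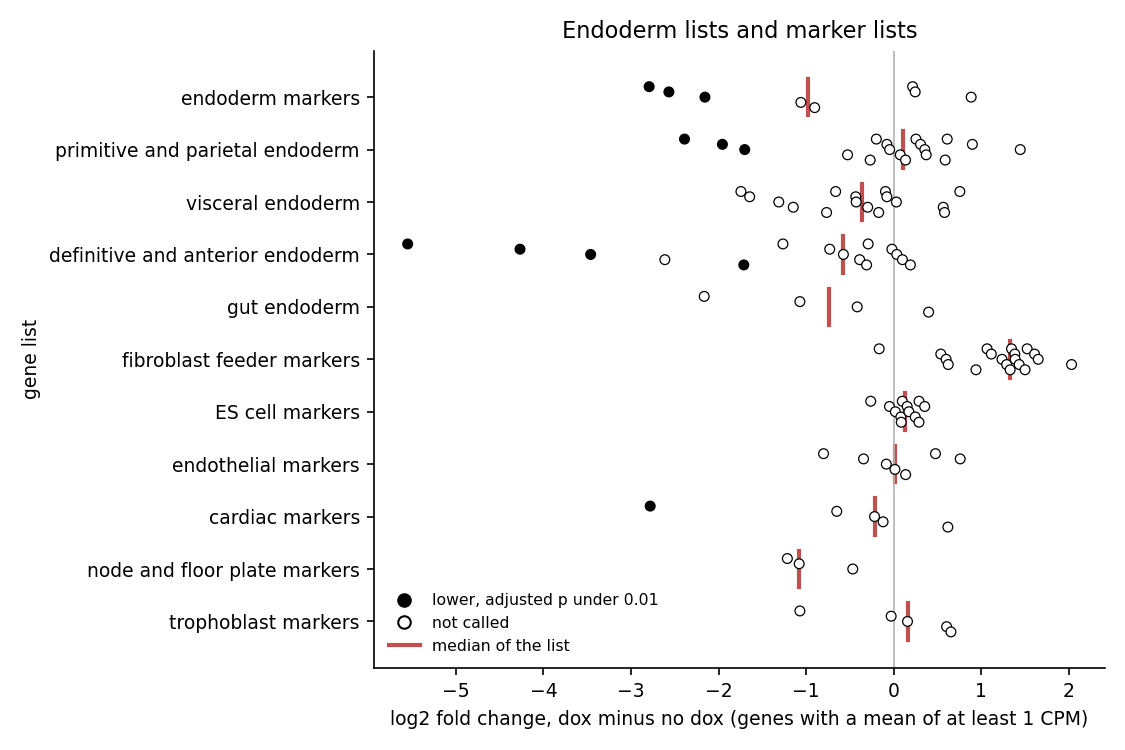
Log2 fold changes (+dox minus −dox, x axis) of the expressed genes in each list (y axis), with filled points for genes called lower, open points for genes not called and red bars for list medians. The median was −0.98 for the endoderm markers, −0.57 for the definitive and anterior list and 0.11 for the primitive and parietal list. It was −0.74 for the gut list, −0.36 for the visceral list, −1.08 for the node and floor plate markers and 1.33 for the fibroblast feeder markers.

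Several members are also expressed in other cell types, whose markers were read in the same fit. Foxa2 is a gene of node and floor plate, and 5 node and floor plate markers summed to 22.3 and 27.1 CPM in −dox and to 15.3 and 12.7 CPM in +dox. All 5 were detected in every library, 0 of 5 were called by edgeR, and Shh and Noto were under a mean of 1 CPM. Beside the −0.98 of the expressed members, the other 3 node and floor plate markers had a median log2 fold change of −1.08, each of them negative. The 2 highest per length were Chrd (log2 fold change −1.08, edgeR adjusted p = 0.0256, called lower by DESeq2) and Foxj1 (−0.47, edgeR adjusted p = 0.286). Sox17 and Sox7 mark endothelium, and 0 of 10 endothelial markers were called. Their sums were 99.7 and 115 CPM in −dox and 112 and 120.7 CPM in +dox, and Cdh5, Emcn and Cldn5 were under a mean of 1 CPM. Pecam1 alone had 76.5 and 91.0 CPM in −dox and 88.9 and 95.1 CPM in +dox, so the sums mostly follow that gene. The 7 expressed endothelial markers had a median log2 fold change of 0.01, with 3 below 0 and 4 above. Pecam1 and Sox18, the highest per length, had log2 fold changes of 0.14 and 0.01 (edgeR adjusted p = 0.597 and 0.982).

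Gata4 and Gata6 act in heart muscle. Of 8 cardiac markers, 1 was called lower, Actc1 (−2.78, edgeR adjusted p = 0.00136), beside 0.519% of all genes tested. The cardiac markers summed to 24.7 and 26.1 CPM in −dox and to 21.4 and 20.2 CPM in +dox, with Tbx5, Tnnt2 and Hand2 under a mean of 1 CPM. Myl7 and Myl4 were the highest per length, with log2 fold changes of −0.65 and −0.12 (edgeR adjusted p = 0.187 and 0.836). Of 8 trophoblast markers, Prl3d1 and Tpbpa had no reads, and 0 of the other 6 were called, with sums from 160.5 to 190.2 CPM. Tfap2c alone had 139.0 and 157.6 CPM in −dox and 134.4 and 156.3 CPM in +dox, so the sums mostly follow that gene. Of the 5 expressed trophoblast markers, 2 had log2 fold changes below 0 and 3 above, with Krt7 the lowest at −1.07. Tfap2c and Hand1 had log2 fold changes of −0.03 and 0.65 (edgeR adjusted p = 0.919 and 0.258). With 0.599% of all genes tested called in either direction by edgeR, 0 calls in lists this short tell little. The part of these cell types in the changes of the members was not tested.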

How the data were processed

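Polyadenylated RNA of 2 +dox and 2 −dox cultures was sequenced as paired reads, and the paper calls the 2 of each group biological replicates. The p-values measure the spread between these samples. The authors used cutadapt for trimming, TopHat2 for alignment (mm9) and HOMER to count unique exon reads once PCR duplicates had been taken out. They deposited raw counts per gene in a table for each replicate, beside the transcript length in bases. Tool versions and strand use are not given in the sources used here. The tables were joined by symbol, since 547 symbols have different transcripts in each.

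All genes with a count of 1 or more in some library were tested with edgeR 4.0.16 (R 4.3.3), by its quasi-likelihood test with TMM normalization and package defaults, and p-values were adjusted by Benjamini-Hochberg over all genes, with a threshold of 0.01. The paper's own test was DESeq2 at the same threshold, which gave it 375 genes, 118 higher and 257 lower. Here DESeq2 1.42.0 was the alternative, and it gave the same counts. Within-replicate differences used a prior count of 2. Standard errors came from the test statistic, and intervals from these errors. CPM per kb is CPM over transcript length. The members and lists were chosen with earlier results of these data known. Named genes are the 10 members, list genes called, the 2 largest changes of each endoderm list among expressed genes (mean of 1 CPM or more), and the 2 highest markers per length of each list. Gsc, Dkk1, Kit, Actc1, Lrp2, Amn, Col4a1, Pdgfra and the secreted carriers that are not members, and genes named for low levels, were named after their values were seen. Motifs were searched in 250 bases upstream of RefSeq starts. One marker of the node and floor plate list is not reported here and was left out of its sums.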

Additional observations from a re-analysis of the deposited data

How the results depend on the processing

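With 2 libraries a group, the number of genes past the threshold depended on the setting far more than the fold changes did. Foxa2, Sox17, Gata6, Gata4 and Foxa1 had negative log2 fold changes in 11 of 11 alternatives, and Cubn, Dab2 and Sox7 positive ones in 11 of 11. Gata4 was called in 5 of the 11, and Foxa1, Cubn, Dab2 and Sox7 in 0. Afp changed sign in 2 of 10 settings and was never called.

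The main test called 120 genes, 3 members (all lower) and 7 genes of the endoderm lists. With adjusted deviances edgeR called 0 genes, 0 members and 0 list genes, although 3254 genes had an unadjusted p under 0.05, and with filterByExpr it called 11 genes, 0 members and 4 list genes. DESeq2 called 375 genes, and 68.5% of its calls were lower against 86.7% in the main test. The likelihood ratio test called 457 genes (71.6% lower) and 15 list genes. A threshold of 0.05 gave 573 genes and 16 list genes. Leaving out each library in turn gave 0 to 992 genes, 0 to 4 members called, 0 to 4 called lower and 0 to 22 list genes. Without −dox replicate 1 or 2 no gene was called, with 1753 and 1450 genes at an unadjusted p under 0.05. Without +dox replicate 1 the counts were 992 genes and 18 list genes, and without +dox replicate 2 they were 877 (40.8% lower) and 22. These fits assume that the lone library varies like the other group. The cause of these differences was not tested.

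The replicate numbers are shared between groups, but no label says that a number marks a shared batch, and the deviations of same-numbered libraries correlated by 0.196 across genes. With the replicate block, edgeR called 786 genes (59.8% lower), 18 list genes and 4 members (Foxa2, Sox17, Gata6 and Gata4, the last with an adjusted p of 0.00146).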
